A study of Mus musculus with 4 samples.

Results

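The genes of oxidative phosphorylation encode the 5 protein complexes of the mitochondrial inner membrane and the mobile carrier cytochrome c. Their transcripts were followed here in mouse embryonic stem cells with and without BMP-2. The members were chosen by gene symbol alone: every probe set whose single annotated symbol starts with Nduf, Sdh (a to d), Uqcr, Cox4 to Cox8 or Atp5, together with Cyc1 and Cycs. This rule took 184 of 45101 probe sets and 92 of 18193 genes, and a gene was read from its brightest probe set. By complex there were 36 genes of complex I, 8 of complex I assembly factors (Ndufaf), 4 of complex II, 9 of complex III, 17 of complex IV, 17 of complex V and Cycs itself. The tested set held 90 of the 92, because Ndufb4 and Cox8b lay below the brightness limit that a probe set had to pass. A further 10 probe sets carry a member symbol beside other symbols and were left out.

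The cells of all 4 arrays were E14Tg2A.4, mouse embryonic stem cells derived from E14Tg2a and lacking functional Hprt like that parent, so every value comes from 1 line. BMP-2, or bone morphogenetic protein 2, is a growth factor of the TGF-beta family, and 2 of the arrays carry RNA of cells kept with it (25 ng/ml, 1 h). The remaining 2 carry RNA of cells kept without it for the same time. RNA was hybridised to one-colour Affymetrix arrays, and the labels number the arrays of each group 1 and 2. This gives 2 contrasts of the same 4 arrays: BMP-2 treated minus untreated, and array 2 minus array 1. The labels do not tell whether each array had its own culture. The p-values therefore reflect only the spread among these samples, and that spread may be technical.

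Electrons from NADH enter the respiratory chain at complex I and those from succinate at complex II. Both pass them through ubiquinone to complex III, cytochrome c and complex IV, where oxygen is reduced, and complexes I, III and IV pump protons that drive ATP synthesis in complex V. Some catalytic subunits of complexes I, III and IV and of the proton channel of complex V come from mitochondrial DNA, and all other subunits come from nuclear genes such as those followed here. Pluripotent stem cells are known for high glycolysis alongside mitochondrial respiration.

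The nuclear respiratory genes are known targets of NRF1 and of ETS factors of the GABP type, so the promoters of 6 members, 1 of each complex and Cycs, are shown to give the sequence context of these transcripts. Each is the 170 bases that end at the last base before the annotated start, from RefSeq on GRCm38.p6, all on the minus strand and written 5′ to 3′. They were picked because a match lies before the start. Capitals mark the NRF1 core CGCATGCG or the ETS core CCGGAAG, the latter read as CTTCCGG where it lies on the other strand, and no 2 marked matches overlap.
Ndufa8: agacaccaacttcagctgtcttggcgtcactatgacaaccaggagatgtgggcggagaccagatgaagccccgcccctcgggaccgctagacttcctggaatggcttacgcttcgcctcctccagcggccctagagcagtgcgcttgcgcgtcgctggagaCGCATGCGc
Sdhd: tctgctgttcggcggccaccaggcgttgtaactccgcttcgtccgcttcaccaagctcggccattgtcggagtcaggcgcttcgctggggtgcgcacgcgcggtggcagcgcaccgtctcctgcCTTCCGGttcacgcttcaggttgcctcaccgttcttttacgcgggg
Uqcr11: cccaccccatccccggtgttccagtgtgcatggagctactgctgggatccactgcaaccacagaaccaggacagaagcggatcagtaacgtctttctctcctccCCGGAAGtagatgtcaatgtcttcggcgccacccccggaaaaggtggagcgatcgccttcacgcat
Cycs: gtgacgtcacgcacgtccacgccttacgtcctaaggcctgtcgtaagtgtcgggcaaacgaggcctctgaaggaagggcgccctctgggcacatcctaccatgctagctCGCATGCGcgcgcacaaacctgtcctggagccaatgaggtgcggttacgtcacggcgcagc
Cox6a1: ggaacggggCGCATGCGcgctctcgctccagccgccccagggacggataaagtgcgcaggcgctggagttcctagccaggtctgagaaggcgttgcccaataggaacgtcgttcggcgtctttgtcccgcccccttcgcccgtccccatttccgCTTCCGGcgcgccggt
Atp5k: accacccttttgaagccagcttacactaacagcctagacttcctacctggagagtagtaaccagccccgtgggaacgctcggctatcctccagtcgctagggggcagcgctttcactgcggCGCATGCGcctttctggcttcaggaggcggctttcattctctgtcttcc
The windows lie at chr2:36049339-36049508 (Ndufa8), chr9:50603850-50604019 (Sdhd), chr10:80406822-80406991 (Uqcr11), chr6:50566570-50566739 (Cycs), chr5:115348959-115349128 (Cox6a1) and chr5:108434400-108434569 (Atp5k). The NRF1 core lies 9 to 2 bases before the start of Ndufa8, 61 to 54 before that of Cycs, 161 to 154 before that of Cox6a1 and 49 to 42 before that of Atp5k. The ETS core lies 46 to 40 bases before the start of Sdhd, 66 to 60 before that of Uqcr11 and 16 to 10 before that of Cox6a1. In the longer window of 300 bases described below, Uqcr11 also held an NRF1 core and Atp5k an ETS core. Neither of these lay wholly within the bases shown.

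Of the 92 genes, 75 matched 80 promoter windows of 300 bases (250 before the start and 50 after it), and 17 had no window. Both strands were searched. The NRF1 core was found in 11 of the 80 windows (13.8%), against 1.87% of all 32851 windows and 2.52% of those of protein-coding genes. The ETS core was found in 19 (23.8%), against 8.86% and 11.6%. AAGATGGC, the core bound by YY1, was found in 10 (12.5%), against 2.75% and 3.05%, and in 9 of the 10 genes it reached past the start. GGGCGG, the SP1 box, was found in 46.2% of the windows, against 35.7% of all and 46.2% of coding ones. Among the genes with the NRF1 core were Cycs, Uqcrc1, Ndufa8, Ndufaf4, Cox6a1 and Atp5g2. Those with the ETS core included Ndufs3, Ndufs8, Sdhb, Sdhd, Uqcrh and Cox6b1. In all, 33 windows held at least 1 of the NRF1, ETS and YY1 cores. A match says that the letters are there and not that a factor binds.

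The deposited MAS5 signals had been scaled to one trimmed mean, 500.003 on every array, and their medians were 82.5 and 94.6 on untreated arrays 1 and 2 and 81.8 and 94.9 on treated arrays 1 and 2. The median log2 signal thus lay 0.21 higher on the arrays numbered 2. Of the probe sets other than controls, 27022 passed the brightness limit of 53.0. Precision is limited by having 4 arrays. Known early BMP targets marked the treatment: the Id1 signal was 3129 and 3007 in untreated and 9738 and 9495 in treated cells, a difference of 1.65 log2 (limma, adjusted p = 2.0e-05), and Id2 and Id3 differed by 1.76 and 1.73. Stem cell identity was read from 8 genes of which all were tested, the brightest being Dppa5a at 21846 and 21119 in untreated cells. Of 10 fibroblast and feeder markers, 4 passed the brightness limit, with Mmp2 the brightest at 362 and 448. On untreated array 2 the 3 controls for 18S ribosomal RNA exceeded the brightest other array 6.11-fold, 4.13-fold and 3.94-fold. The part of these controls in the results was not tested.

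The respiratory genes were bright in untreated cells. The median untreated signal of the 90 tested genes was 6048, against 280.04 for all tested probe sets, and 75 of the 92 genes lay above the 90th percentile of signal. Median untreated signals were 5242 for complex I, 1129.6 for its assembly factors, 3969 for complex II, 7373 for complex III, 7551 for complex IV and 10176.5 for complex V, and Cycs stood at 14277. The signal of a probe set depends on its probes as well as on the RNA, so these values do not rank the genes by RNA amount. Each member was also read from its brightest probe set, a choice that raises the members against all probe sets. In the plot of signals by complex, the lowest untreated signals of complexes II, III and V were 3253, 5059 and 5293, and the tail of low signals in complex IV was made up of tissue isoforms and Cox7c.

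**Figure D1:**
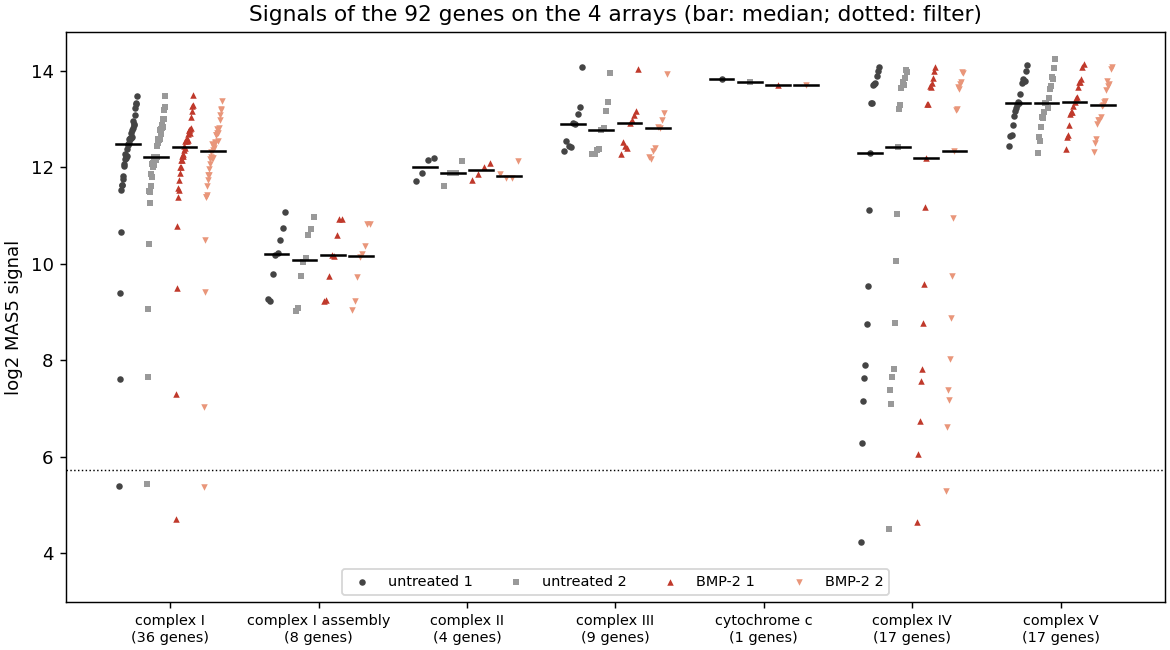
Log2 MAS5 signal of the 92 genes on each of the 4 arrays, by complex, with 1 point per gene and array, a bar at the median and a dotted line at the brightness limit of 5.73 log2. The 4 arrays give nearly the same column of points in every complex, and the dim genes lie in complex I (Ndufb4, Ndufa4l2) and complex IV.

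The treated and untreated arrays were then compared, to ask whether respiratory transcripts differed after 1 h of BMP-2. By limma, 0 of the 90 genes passed an adjusted p of 0.05, where 5 of all 27022 probe sets did (0.0185%). The lowest adjusted p of a member was 1.00, and at an unadjusted p under 0.05 there were 2 members (Ndufs8 and Ndufa12), against 829 of all probe sets (3.07%). The median difference was -0.027 log2 for the members and 0.0076 for all tested probe sets, and 63 of 90 members (70.0%) lay below 0 against 47.8% of all. Both treated signals lay below both untreated signals in 21 members (23.3%), and above them in 6 (6.67%). Over all tested probe sets 12.5% lay lower and 15.9% higher in this way. In both pairs of equal array number, 43 of 90 members were lower with treatment and 12 higher. Over all 27022 tested probe sets these counts were 6190 and 7322. In bulk samples such as these, fewer cells with a transcript and less of it per cell cannot be told apart.

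The small median was much alike in both pairs of equal array number, and it moved when an array was left out. It was -0.025 between the arrays numbered 1 and -0.032 between those numbered 2, and -0.017 after quantile normalization. It turned to 0.0074 without untreated array 1 and to 0.0094 without treated array 2. It was -0.068 without untreated array 2 and -0.071 without treated array 1. With an array left out the groups are not balanced over array number. Such values therefore also carry part of the array 2 minus array 1 difference, here and by complex below. On the brightest probe set of each gene, most members could be bounded tightly. The 95% interval of the treated minus untreated difference lay wholly within a 1.25-fold change either way (0.32 log2) for 70 of 90 genes. Among them were all 17 of complex V, 28 of 35 of complex I and 8 of 9 of complex III. Other probe sets of a gene could lie outside this limit. The differences themselves were within 0.1 log2 of 0 for 69 of 90 genes and within 0.2 for 84.

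The replicate number was compared in the same way, as a measure of how far arrays of equal treatment lay apart. No member passed an adjusted p of 0.05 by limma (0 of 90), and the same held for all probe sets (0%), while 16 members and 2905 of all probe sets (10.8%) had an unadjusted p under 0.05. The 16 were 7 genes of complex I, 1 of complex II, 3 of complex III, 4 of complex IV and 1 of complex V. The lowest adjusted p of a member was 0.343, shared by Uqcrfs1 and Ndufb7. The median of array 2 minus array 1 was -0.070 log2 for the members and 0.052 for all tested probe sets, and 74 of 90 members (82.2%) lay below 0 against 39.8% of all. The signals of the arrays numbered 2 lay below both arrays numbered 1 for 46 members and above both for 5, where the shares over all probe sets were 15.6% and 28.2%. The difference was seen in each group by itself, with a member median of -0.074 between the untreated arrays and -0.073 between the treated arrays, where all tested probe sets gave 0.062 and 0.033. Of the 90 genes, 60 (66.7%) were lower on array 2 in both groups and 6 (6.67%) higher, against 21.7% and 36.8% of all tested probe sets.

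**Figure D2:**
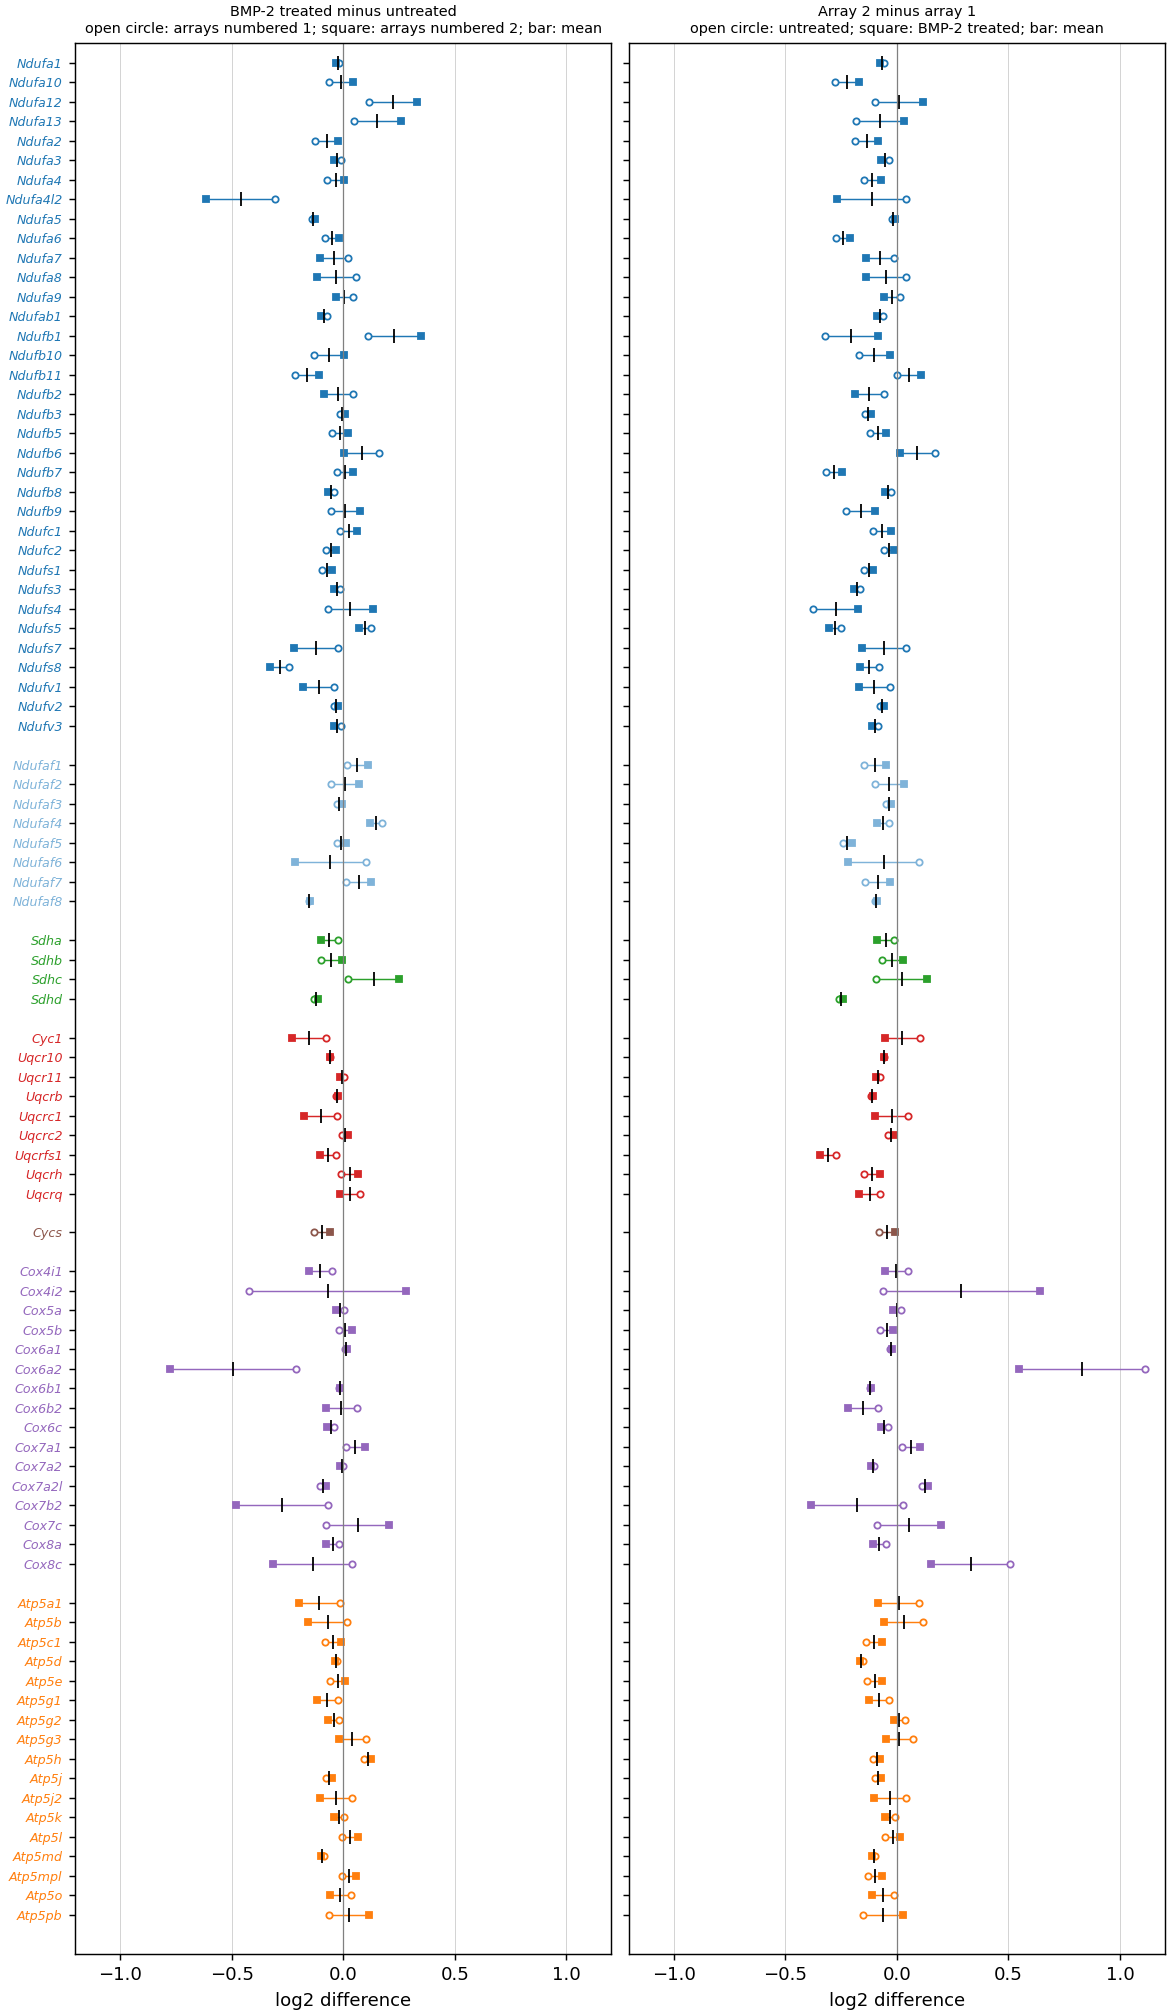
Log2 differences of the 90 tested genes, coloured by complex: on the left treated minus untreated for each pair of equal replicate number (open circle, arrays numbered 1; square, arrays numbered 2), on the right array 2 minus array 1 for each group (open circle, untreated; square, treated), with a bar at the mean. On the right most genes lie left of 0 in both groups (60 of 90), and on the left the genes lie closer to 0, with 69 of 90 within 0.1.

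Array 2 minus array 1 varied with brightness across the whole array. For all tested probe sets its median was 0.20 log2 in the dimmest range (5.73 to 7 log2), 0.065 between 8 and 9, and -0.046 and -0.062 between 11 and 12 and between 12 and 13. It was nearer 0 again above 13, at -0.034 over 861 probe sets, a range that held 30 of the members. Above 11 log2 (a limit set after the values were seen) the median was -0.047 over 3823 probe sets and -0.074 over the 73 members there. In that range 70.4% of all probe sets lay below 0 on array 2 minus array 1, and 84.9% of the members. The treated minus untreated median above 11 log2 was -0.012 for all and -0.030 for the members, with 57.2% and 74.0% below 0. Groups did not overlap, lower with treatment, for 14.5% of all bright probe sets and 24.7% of bright members, and lower on array 2 for 40.2% and 56.2%.

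**Figure D3:**
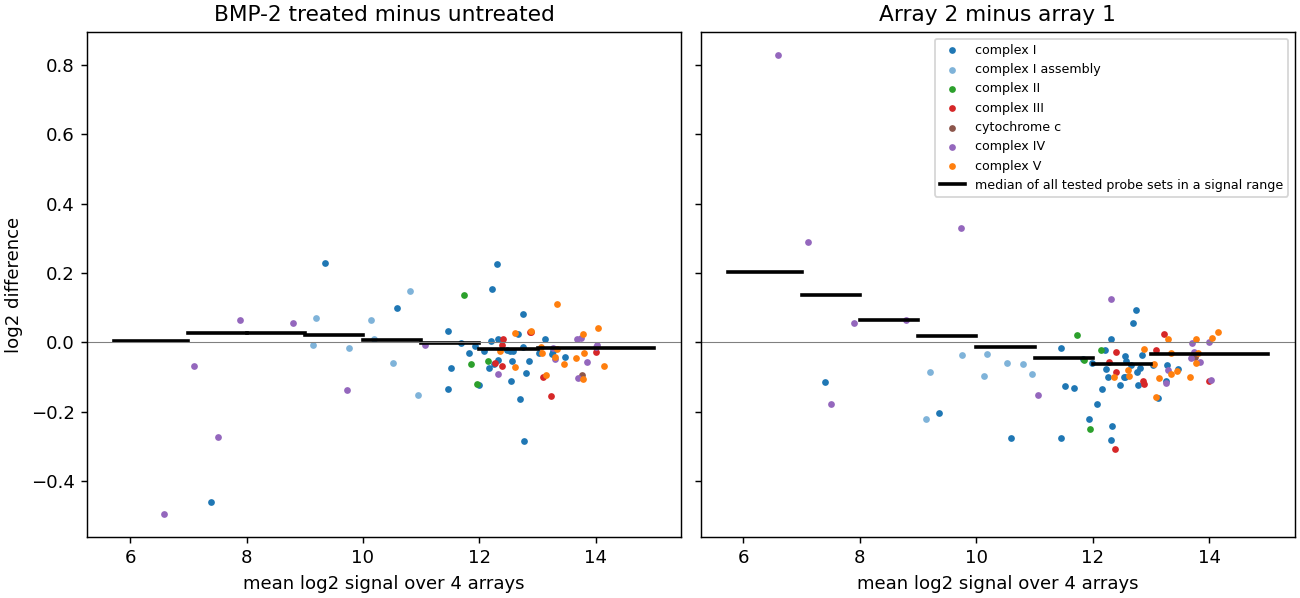
Log2 difference against mean log2 signal over the 4 arrays for the 90 tested genes (points, coloured by complex), with black bars at the median of all tested probe sets in each signal range, for treated minus untreated (left) and array 2 minus array 1 (right). The bars run from 0.20 for the dimmest probe sets to -0.062 between 12 and 13 log2 and -0.034 above 13 on the right, and stay within 0.03 of 0 on the left.

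How much lower the arrays numbered 2 read depended on the scaling. When each array was centred on its median, which moves the arrays numbered 2 down by 0.21 log2 against those numbered 1, the member median became -0.28 and 59 of 90 members passed an adjusted p of 0.05, all lower, where 10.4% of all tested probe sets were called lower. Above 11 log2 this centring called 55.0% of all probe sets and 78.1% of members lower. After quantile normalization the member median was -0.037 and 0 members passed. The direction of the member median was the same under all 3 scalings.

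**Figure D4:**
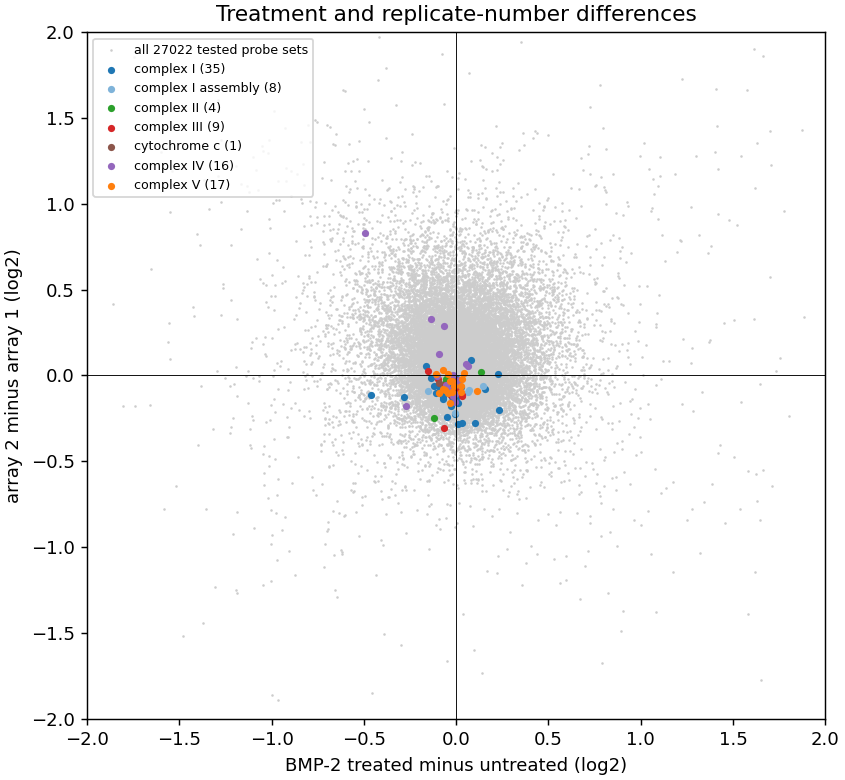
Array 2 minus array 1 against treated minus untreated, both in log2, for all 27022 tested probe sets (grey, 11 of them beyond the plotted range) and the 90 members (coloured by complex). Most members lie in a compact group below the horizontal line, and those farthest from the group are Cox6a2, Cox8c, Cox4i2 and Ndufa4l2, all tissue isoforms.

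In the following, the signals of a group are given in the order array 1, array 2, and a value in brackets after the signals is the log2 difference named there, treated minus untreated where the groups are given and array 2 minus array 1 where the array numbers are. Complex I, the NADH dehydrogenase and the largest of the complexes, had a median difference of -0.026 log2 with BMP-2 and of -0.099 between array 2 and array 1, and 0 of 35 genes passed in either contrast. The treatment median was 0.0077 without untreated array 1 and 0.028 without treated array 2. Its 6 core genes, which encode conserved subunits of the arm that takes up NADH and passes on its electrons (Ndufs1, Ndufs3, Ndufs7, Ndufs8, Ndufv1 and Ndufv2), all lay below 0 in both contrasts, with medians of -0.092 and -0.11. The 28 accessory genes gave -0.023 and -0.081. Ndufs8, which encodes an iron-sulphur subunit, read 7926 and 7493 in untreated and 6705 and 5973 in treated cells. Both treated arrays were below both untreated arrays, and the difference was -0.28 log2 (95% interval -0.46 to -0.10), the smallest unadjusted p of the members at 0.0054 in limma with an adjusted p of 1.00. The 5 other Ndufs8 probe sets gave -0.11 to 0.19, and the mean over all 6 gave -0.048.

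Ndufa12, an accessory subunit, was the other member with an unadjusted p under 0.05, and it lay higher with BMP-2. Its signals were 4841 and 4529.7 without BMP-2 and 5253 and 5699.9 with it, a difference of 0.22 (interval 0.045 to 0.40, unadjusted p 0.019 in limma, adjusted p = 1.00). The groups did not overlap. The other tested Ndufa12 probe sets, which were about as bright, gave -0.019 and 0.034. Ndufb1, a small accessory subunit of low signal, read 675 and 539 untreated and 728 and 687 treated, with all treated signals above the untreated ones by a narrow margin (0.23, interval -0.084 to 0.54). Ndufa13 (also known as Grim19) read 4820.1 and 4244 untreated and 4979.6 and 5086 treated, likewise without overlap (0.15). Ndufb11 lay the other way, at 7016 and 7028 untreated and 6033 and 6513 treated (-0.16). Its 2 other tested probe sets gave -0.093 and -0.0011. Ndufa5, at 2962 and 2916 untreated and 2686 and 2668 treated, gave -0.13 on the probe set used and -0.12 on its other one.

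The largest replicate-number differences of complex I were in accessory genes. Ndufb7, on the intermembrane side of the complex, read 5666 and 5553 on the untreated and treated arrays numbered 1 and 4543 and 4689 on those numbered 2. The arrays numbered 2 were lower in both groups, with a difference of -0.28 log2 (interval -0.41 to -0.15, limma adjusted p = 0.343), while treated and untreated arrays differed by 0.0083. Ndufs5 read 1624 and 1772 on arrays numbered 1 and 1365 and 1436 on arrays numbered 2 (-0.28), and Ndufs4, whose loss causes a Leigh-like disease in mice, read 3176 and 3026 on arrays numbered 1 and 2446 and 2685 on arrays numbered 2 (-0.27). The other probe set of Ndufb7 gave -0.064, and the 2 other tested probe sets of Ndufs4 gave -0.010 and 0.12. Ndufa6 (-0.24) and Ndufa10 (-0.22) differed in the same direction, but the other tested probe set of Ndufa10 gave 0.86. On the probe sets used for these 5 genes treated minus untreated lay between -0.050 and 0.10, and for none did the treated and untreated signals separate.

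The 3 brightest genes of complex I were Ndufa7, Ndufa1 and Ndufa4. Ndufa7 read 11495 and 11389 untreated and 11665 and 10592.5 treated, and Ndufa1, an X-linked subunit needed for assembly, read 10131 and 9733 untreated and 10014 and 9514 treated. Ndufa4, counted here by its name although the protein is now placed in complex IV, read 10365 and 9348 untreated and 9860.3 and 9378 treated. In all 3 the groups overlapped, with differences of -0.042, -0.025 and -0.034, and both arrays numbered 2 were the lower ones (-0.076, -0.066 and -0.11). Ndufb4, below the brightness limit and not tested, read 41.9 and 43.5 untreated and 26.1 and 41.4 treated.

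The 8 assembly factors of complex I, which help build it and are not part of the finished enzyme, were dimmer and had medians of 0.0007 with BMP-2 and -0.074 by replicate number. The treatment median was -0.017 after quantile normalization, and 0.085 and 0.068 without untreated array 1 and without treated array 2. All 8 lay below 0 by replicate number, from -0.22 to -0.033, and 0 passed in either contrast. Ndufaf8 and Ndufaf4 had the largest treatment differences and lay in opposite directions. Ndufaf8 read 2157 and 2019 untreated and 1938 and 1823 treated (-0.15), and Ndufaf4 read 1724 and 1682 untreated and 1945 and 1827 treated (0.15). Neither overlapped between groups, but the second probe set of each gave the other sign, 0.10 for Ndufaf8 and -0.10 for Ndufaf4. Ndufaf5, which modifies a core subunit, read 615 and 604 on the arrays numbered 1 and 521 and 525 on those numbered 2 (-0.22). Ndufaf1, which acts in building the membrane arm, read 1157 and 1169 on arrays numbered 1 and 1046 and 1129.7 on arrays numbered 2 (-0.098), while treated minus untreated was 0.063, and Ndufaf6 read 1447 and 1550.5 untreated and 1552 and 1334 treated, with arrays numbered 1 and 2 in opposite order in the groups.

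Complex II, succinate dehydrogenase, is shared by the respiratory chain and the citric acid cycle and is wholly nuclear encoded. Its 4 genes gave medians of -0.057 with BMP-2 and -0.036 by replicate number, the latter turning to 0.013 after quantile normalization. Sdha, the flavoprotein, read 3804 and 3766 untreated and 3738 and 3520.1 treated (-0.061), and Sdhb, the iron-sulphur subunit, read 4701 and 4484 untreated and 4383 and 4464 treated (-0.054). In both genes the treated arrays lay just below the untreated ones on the probe set used. The 2 other tested probe sets of Sdha gave -0.050 and 0.098 with BMP-2. The membrane anchors lay on opposite sides of 0: Sdhc read 3358 and 3148 untreated and 3408 and 3747 treated (0.14, treated above untreated), and Sdhd read 4523 and 3782 untreated and 4133 and 3499 treated (-0.12, overlapping). Sdhd was the gene of this complex with the largest replicate-number difference, -0.25 (interval -0.42 to -0.082, limma adjusted p = 0.401). A second, dimmer probe set disagreed in sign for both anchors: -0.16 with BMP-2 for Sdhc, and 0.28 by replicate number for Sdhd.

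Complex III, the cytochrome bc1 complex, gave medians of -0.028 with BMP-2 and -0.086 by replicate number over 9 genes, with 0 passing in either contrast. The treatment median was 0.030 without untreated array 1 and 0.026 without treated array 2. Among the members, the catalytic subunits of complex III are Uqcrfs1 (the Rieske iron-sulphur protein) and Cyc1 (cytochrome c1). Uqcrfs1 read 6007 and 5868 on the untreated and treated arrays numbered 1 and 4970.5 and 4628 on those numbered 2. This was the largest replicate-number difference of the members above 11 log2, -0.31 (interval -0.45 to -0.17, limma adjusted p = 0.343), in a gene whose treated and untreated arrays overlapped (-0.068). Cyc1 showed the other pattern, with 9731 and 10453 untreated, 9234 and 8905 treated and a difference of -0.15 (interval -0.31 to 0.0031) without overlap, against 0.025 by replicate number.

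Of the core proteins of complex III, which hold the complex together, Uqcrc1 read 8857 and 9184 untreated and 8704 and 8136 treated, lower on both treated arrays (-0.10), and Uqcrc2 differed by 0.0083 with overlap. The small subunit Uqcrb was the brightest of the complex, at 17207 and 15883 untreated and 16827 and 15631 treated. On this probe set the array number and not the treatment ordered the signals (-0.11 against -0.028). The other tested probe set of Uqcrb gave -0.018 by replicate number and -0.073 with BMP-2. Uqcrq, a small subunit beside Uqcrb, read 7642 and 7257 untreated and 8062 and 7176 treated, again lower on both arrays numbered 2 (array 2 minus array 1 of -0.12). Its 3 other tested probe sets gave -0.012 to 1.03 by replicate number. With BMP-2 they gave -0.22 to -0.043, against 0.031 on the one used. Uqcrh, Uqcr10 and Uqcr11 gave replicate-number differences of -0.11, -0.058 and -0.086. Cycs, the mobile electron carrier that also triggers caspase activation when released, read 14663.5 and 13891 untreated and 13407 and 13334 treated. Both treated arrays were the lower ones, with a difference of -0.094 (interval -0.24 to 0.048), and its 2 other tested probe sets lay at -0.086 to -0.037.

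Complex IV, cytochrome c oxidase, is the complex in which nuclear subunits come in general and tissue-specific forms. Over 16 tested genes the medians were -0.031 with BMP-2 and -0.014 by replicate number, and 0 passed in either contrast. The 10 general genes gave -0.015 and -0.036. The brightest were Cox7a2, Cox5a and Cox6c. Cox7a2 read 17318 and 16149.6 untreated and 17314 and 15997 treated, ordered by array number (-0.11) and not by treatment (-0.0070). Cox5a, a subunit on the matrix side, read 16299.7 and 16520.4 untreated and 16334 and 16156 treated, all within a narrow band (-0.015 and 0.0018). Cox6c read 15146 and 14739 untreated and 14729 and 14021 treated, slightly lower on both treated arrays (-0.056). Cox4i1, a regulatory subunit that joins the core early in assembly, read 13521 and 13989.7 untreated and 13049.8 and 12578 treated and was lower on both treated arrays (-0.10, interval -0.24 to 0.040).

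Cox7a2l, a protein that joins complex III to complex IV in supercomplexes, was the only general gene of complex IV that lay higher on both arrays numbered 2 than on both numbered 1, at 5041 and 4692 against 5453 and 5163 (0.13, interval -0.021 to 0.27). After median centring this difference was negative. Cox7c, a small general subunit, was dim on its single-symbol probe sets, at 239.7 and 226 untreated and 227 and 261 treated on the brighter of them.

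The tissue isoforms of complex IV and Ndufa4l2 are given here beside their general partners. The general forms Cox4i1, Cox6a1, Cox6b1, Cox7a2, Cox8a and Ndufa4 read between 9348 and 17318 on every array. The heart and muscle form Cox6a2 read 77.8 and 168 untreated and 67.1 and 98.0 treated, where Cox6a1 read 13716 and 13432 untreated and 13811 and 13594.5 treated. Cox8b, another muscle form, was below the brightness limit at 18.9 and 22.6 untreated and 25.2 and 39.4 treated, against 10345 and 9996 untreated and 10219 and 9483 treated for Cox8a. Cox7a1 read 434 and 441 untreated and 438 and 471 treated. Cox4i2, a form linked to oxygen sensing in lung, read 144 and 138 untreated and 108 and 168 treated. Among the forms known from testis, Cox6b2 was well above the limit at 2210.3 and 2085 untreated and 2305 and 1979 treated, where Cox6b1 read 10265.5 and 9445 untreated and 10141 and 9361 treated. Cox8c read 748 and 1064 untreated and 769 and 856 treated, and Cox7b2 read 199 and 203 untreated and 189.7 and 145 treated.

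Among the isoforms were Cox6a2 and Ndufa4l2, the tested members farthest from 0 with BMP-2, and their intervals were wide. Cox6a2 gave -0.49 with BMP-2 (interval -1.36 to 0.37) and 0.83 by replicate number (interval 0.13 to 1.53, limma adjusted p = 0.419). Its arrays numbered 2 were the higher ones in both groups. Cox8c was likewise higher on both arrays numbered 2 (0.33, interval 0.050 to 0.61). The other tested probe set of Cox8c gave 0.055 by replicate number, and -0.44 with BMP-2 against -0.14 on the one used. Ndufa4l2, a hypoxia-induced relative of Ndufa4, read 195 and 201 untreated and 158 and 131 treated, lower on both treated arrays (-0.46, interval -0.93 to 0.011, unadjusted p 0.0545 in limma, adjusted p = 1.00). Cox7b2 was lower on both treated arrays too (-0.27), mostly through treated array 2, and Cox4i2 overlapped. The 7 tested isoforms had medians of -0.14 with BMP-2 and 0.065 by replicate number, the latter on the side where dim probe sets of the whole array lay.

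**Figure D5:**
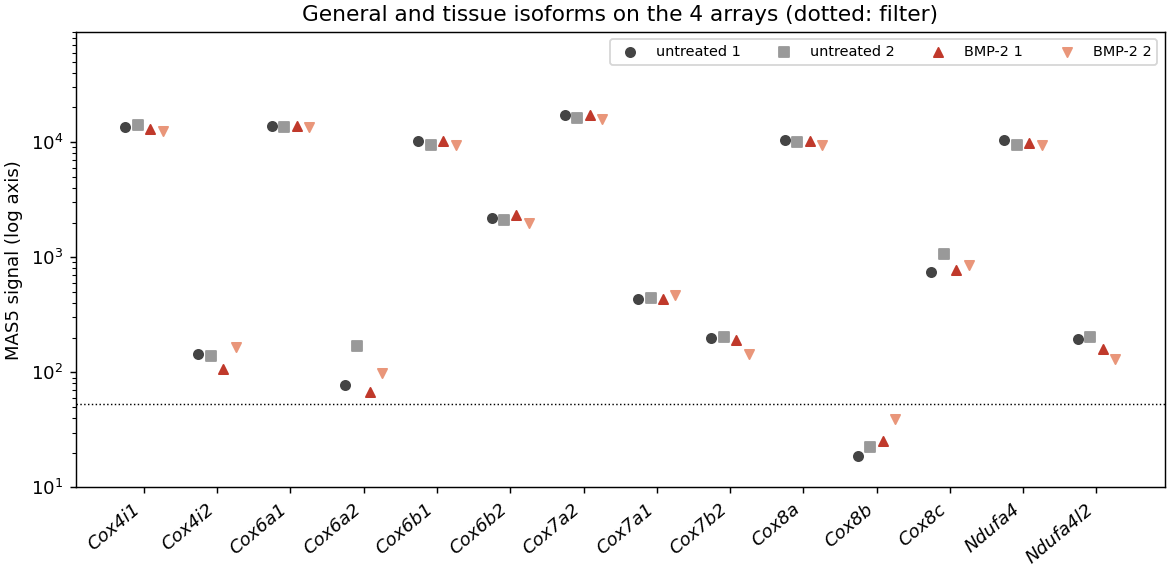
MAS5 signal (log axis) of general and tissue-specific isoforms of complex IV subunits and of Ndufa4 and Ndufa4l2 on the 4 arrays, with a dotted line at the brightness limit of 53.0. The general forms lie at 9348 or above on all arrays, Cox6b2 between 1979 and 2305, and Cox8b below the limit.

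Complex V, the ATP synthase, held the brightest gene of the set and the tightest values. Over 17 genes the medians were -0.031 with BMP-2 and -0.061 by replicate number, and 0 passed in either contrast. On the brightest probe set of each gene the interval lay within a 1.25-fold change in both contrasts. The treatment median was 0.0076 without treated array 2 and -0.067 without treated array 1. The catalytic F1 head is made by Atp5a1, Atp5b, Atp5c1, Atp5d and Atp5e, whose medians were -0.045 and -0.099. Atp5b, the beta subunit that carries the catalytic sites, read 17804.5 and 19329.8 untreated and 18037 and 17336 treated (-0.069, overlapping). Atp5a1, the alpha subunit, read 14074.5 and 15093 untreated and 13933 and 13144 treated, lower on both treated arrays (-0.11, interval -0.26 to 0.045). Atp5d, the delta subunit of the central stalk, read 9217 and 9057 on the arrays numbered 1 and 8292 and 8084 on those numbered 2, the largest replicate-number difference of the complex (-0.16, interval -0.27 to -0.048). The other tested probe set of Atp5d gave 0.0006 by replicate number and -0.082 with BMP-2.

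The c subunit, which forms the rotating ring, is made from 3 genes with the same mature protein. Atp5g3 was the brightest of these at 16237 and 17052 untreated and 17409 and 16855 treated, Atp5g2 read 10054 and 10299 untreated and 9924 and 9829 treated, and Atp5g1 read 6451 and 6306 untreated and 6339.8 and 5809.9 treated. Their treatment differences were 0.042, -0.043 and -0.072, and their replicate-number differences 0.012, 0.010 and -0.079, of which the first 2 turn negative after median centring. The other tested probe set of Atp5g2 gave 0.50 with BMP-2 and 0.34 by replicate number. The peripheral stalk (Atp5h, Atp5j, Atp5o and Atp5pb), which keeps the head from turning, gave medians of 0.0060 and -0.072. Atp5h was the gene of the complex that lay highest with BMP-2, at 10349 and 9617 untreated and 11052 and 10495 treated without overlap (0.11), and its other probe set gave 0.0042. The small membrane subunits Atp5j2, Atp5k, Atp5l, Atp5md and Atp5mpl had medians of -0.020 and -0.032. Among them Atp5md, which helps ATP synthase form dimers, read 9654 and 9029 untreated and 9097 and 8421 treated, a difference of -0.093 with BMP-2 and of -0.10 by replicate number.

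Several probe sets of a gene give a check that the rule did not use. For 50 genes more than 1 probe set was tested. All probe sets of a gene had the same sign in 21 genes for treated minus untreated and in 30 genes for array 2 minus array 1, and the median range within a gene was 0.11 and 0.13 log2. Ndufa10 shows the extreme case for treatment: its bright probe set gave -0.0091 with BMP-2 and a dim one -1.01. By replicate number the extreme case was Uqcrq, from -0.12 to 1.03. Of the 90 probe sets used, 46 carry the suffix of a set unique to its transcript, 27 the suffix for several transcripts of 1 gene, 13 that for possibly several genes and 4 that for cross-hybridising probes. In this order the shares were 51.1%, 30.0%, 14.4% and 4.44%, against 74.9%, 12.9%, 6.11% and 6.11% of all tested probe sets.

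Genes that serve the complexes were listed from general knowledge and compared by counts. Of 35 tested assembly and maturation genes of the respiratory complexes, 0 passed in either contrast (at an unadjusted limma p under 0.05, 0 with BMP-2 and 5, or 14.3%, by replicate number, against 3.07% and 10.8% of all probe sets), and their medians were -0.0081 with BMP-2 and -0.092 by replicate number. Cox17, the copper chaperone of complex IV, was the brightest at 8063 and 8241 untreated and 7528 and 7304 treated (-0.14). Sco2, another copper protein for complex IV, had the largest replicate-number difference (-0.43), with 494 and 560.1 on arrays numbered 1 and 370.1 and 409.9 on arrays numbered 2. Foxred1, a complex I assembly factor, had the largest treatment difference at 300.4 and 355 untreated and 275 and 279 treated (-0.24). None of the 13 symbols of subunits encoded in mitochondrial DNA matched a probe set, and these are not analysed here.

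Of 17 genes of mitochondrial biogenesis, 17 of the citric acid cycle and 17 of glycolysis, 0 passed in either contrast. At an unadjusted limma p under 0.05 there were 0 of each with BMP-2, where all probe sets gave 3.07%. By replicate number there were 2 (11.8%), 4 (23.5%) and 2 (11.8%), where all probe sets gave 10.8%. Their medians with BMP-2 were 0.013, -0.018 and -0.040, and by replicate number -0.030, -0.090 and 0.0075. In the citric acid cycle, which feeds complexes I and II, 15 of 17 genes lay below 0 on array 2 minus array 1. Mdh2, the brightest of these, read 13132 and 13540.2 untreated and 13546 and 12944 treated, and Dlst had the largest replicate-number difference (-0.31). In glycolysis, Ldha, which makes lactate, was the brightest at 18264 and 18388 untreated and 18684 and 18033 treated (0.0023), and Aldoc, a dim aldolase, gave the largest differences, 0.23 and 0.42. In biogenesis, Ssbp1, which coats single-stranded mitochondrial DNA, was the brightest (-0.0046 with BMP-2), and Esrra, a nuclear receptor that acts with PGC-1 coactivators, gave the largest replicate-number difference (0.51). For Esrra this difference was 0.99 between the untreated arrays and 0.034 between the treated ones. The stem cell genes gave 0.0035 with BMP-2 and -0.075 by replicate number, with all 8 below 0 on the latter.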

How the data were processed

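Biotin-labelled cRNA of 4 samples (2 with BMP-2, 2 without) was read on Affymetrix arrays, per the labels. The deposited intensity of a probe set is a linear MAS5 signal, as the submitters' processing notes name the tool, and its version is not given in the sources used here. A scaling within each array was read from the values, whose 2%-trimmed mean was 500.003 on all 4 arrays.

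No pseudocount and no further normalization was applied before taking log2. Of the probe sets other than 64 controls, those with a mean log2 signal above the 40th percentile (5.73) were tested with limma (version 3.58.1, on R version 4.3.3; lmFit, then eBayes with a variance trend), two-sided, with Benjamini-Hochberg adjustment over all of them. Treated minus untreated and array 2 minus array 1 were fitted separately, each with 2 residual degrees of freedom and 7.98 and 5.89 prior ones. With 2 arrays per group a permutation of labels cannot reach 0.05, so no such test was made. The fit was tested on simulated data. All 92 symbols matched the GRCm38.p6 gene table and 0 changed. Values by array are given for the 3 brightest genes of each complex, the 2 with the largest difference in each contrast, the tissue isoforms with their partners and further genes chosen after their values were seen. The members and lists were chosen with earlier results of these data known. The 1.25-fold limit, the brightness ranges and the shown promoters were set after the values were seen. Other settings tried were median centring of each array, quantile normalization, a pseudocount of 25.4, dropping the filter or raising it to the 60th percentile, no variance trend, the replicate number as a block, averaging the probe sets of each gene, and leaving out each array.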

Additional observations from a re-analysis of the deposited data

How the results depend on the processing

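No member passed the threshold with BMP-2 under any of the 12 alternatives, and none by replicate number except after median centring, which called 59 of 90. Over all probe sets the treatment count of 5 was 6 after quantile normalization and with the pseudocount, 4 without the filter, 8 with the stricter filter, 0 without the variance trend (1023 at an unadjusted p under 0.05) and 116 after median centring (72 higher and 44 lower). It ranged from 16 to 141 when 1 array was left out, 16 without untreated array 2, 38 without untreated array 1, 93 without treated array 1 and 141 without treated array 2. The count of 0 by replicate number was 3 after quantile normalization, 4 with the pseudocount, 3 with the stricter filter and 2859 after median centring (42 higher and 2817 lower), and 6 to 27 with 1 array left out. The member median by replicate number was -0.037 after quantile normalization and -0.28 after median centring, and -0.091 to -0.051 with 1 array left out. The member median with BMP-2 was -0.071 to 0.0094 with 1 array left out. Median centring reversed the replicate-number difference of Atp5g2 (-0.20), Atp5g3 (-0.19) and Cox5a (-0.20), by its own shift of the arrays. Treatment differences changed sign in at least 1 alternative for 57 of 90 members, and replicate-number differences for 41. Over the alternatives that kept all 4 arrays these counts were 23 and 30. Where an array is left out, 1 group holds a single array assumed to vary like the other group. Each contrast then also carries part of the other one.

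The replicate numbers come from the labels, which name no shared culture, batch or day. Deviations of arrays with the same number correlated at 0.15 over 27022 tested probe sets and at 0.51 over the members, with 2 pairs only. Over the 83 members other than tissue isoforms the value was 0.38. Treated minus untreated differences of the 2 pairs of equal number correlated at 0.040, 0.34 and 0.40 over the same sets. With the replicate block, 11 probe sets passed by treatment, 9 by replicate number, and 0 members in either contrast. The signals give no read depth, and errors are widest for the dim isoforms.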
